A study of Mus musculus with 2 samples.

Results

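CTCF peaks that passed only 1 of 2 reproducibility thresholds made up 11900 of the 59972 peaks (19.8%) listed by either threshold on chromosomes 1 to 19 and X of embryonic mouse lung. They fell into 2 groups. The optimal list alone held 6871 entries, which were 11.5% of all entries and 12.5% of that list's 54943. The conservative list alone held 5029 entries, which were 8.39% of all entries and 9.47% of that list's 53101. The other 48072 entries were in both lists. An entry was taken as the same in both lists when its chromosome, start, end and summit offset were identical. The members were chosen on measured values, since both thresholds act on how peaks rank, though the value ranked was not given in the sources used here. Signals, scores and replicate ranks are therefore given as descriptions with no test, while sequence and gene annotation were not used in the choice.

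The peaks came from chromatin immunoprecipitation and sequencing (ChIP-seq) with an antibody to CTCF. The 2 samples, labelled biological replicates 1 and 2, formed a single group, with no second condition and no genetic change or treatment in the labels. The tissue was whole lung of B6NCrl mouse embryos at day 14.5, from males and females, pulverised and pooled over more than 1 dissection. The labels give both replicates 1 biosample record and 1 donor record, so differences between them may be technical only. A whole organ mixes epithelium, mesenchyme, vessels and blood, so binding in fewer cells and weaker binding in each cell cannot be told apart. The peak lists hold no RNA values, so the lung label was not checked against marker genes, and they hold no read counts, so the depth of each sample is unknown. Every position below is on mm10 (GRCm38).

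CTCF is a zinc finger protein that reads a long DNA motif through an array of fingers. It blocks enhancers at insulators and, together with the ring-shaped cohesin complex, holds the anchors of chromatin loops. The irreproducible discovery rate (IDR) sets a peak's rank in 1 list against its rank in another and keeps peaks that rank alike. In the usual ENCODE practice a conservative list compares the true replicates, and an optimal list may instead compare random splits of the pooled reads. Which comparison gave either list of this series is not given in the sources used here.

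Sequences of a few members, picked for a high motif score or a strong signal, are given as examples and are not typical of the groups. The matrix learned from the strongest entries of both lists had the consensus TNNCCACCAGGGGGCGCNNN, which is the known CTCF motif, and it grew from the word CAGGGGGC. Among entries with a high motif score, the motif is in capitals within 40 bases of the strand that carries it.
Gm16242 (optimal list only): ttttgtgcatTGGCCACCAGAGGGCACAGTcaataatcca
Gm33035 (optimal list only): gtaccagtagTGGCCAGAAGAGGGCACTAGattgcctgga
Gm22732 (conservative list only): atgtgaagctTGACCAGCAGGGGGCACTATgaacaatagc
Gm12401 (conservative list only): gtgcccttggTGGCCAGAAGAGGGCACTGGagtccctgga
These lines are chr6:129825744-129825783 on the plus strand, chr10:69049997-69050036 on the minus strand, chr4:37445443-37445482 on the plus strand and chr4:41245584-41245623 on the minus strand. The name is that of the gene with the nearest transcription start site (TSS), which was 11806 bp, 16132 bp, 147562 bp and 7007 bp away. The first 3 lay between genes and the last in an intron. All 4 carried an AGGGGGC or AGAGGGC core, and their motif scores of 24.4, 23.9, 26.1 and 23.4 stood far above the threshold for a match, 9.89. The median score of matches was 14.6 in the optimal-only group and 14.5 in the conservative-only group.

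At promoters the members more often lacked a match to that motif. The next line shows a strong promoter summit with 50 bases on each side, plus strand, with each CG in capitals.
Gstm7 (optimal list only): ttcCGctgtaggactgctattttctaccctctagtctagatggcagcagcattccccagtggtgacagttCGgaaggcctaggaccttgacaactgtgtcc
It is chr3:107931925-107932025, 158 bp upstream of Gstm7, which encodes a glutathione S-transferase. The window held 2 CG pairs, and its best motif score was 1.0. The entry had a signal of 51.3, with 42.0 in replicate 1 and 9.94 in replicate 2. The replicate 1 signal was thus several times that of replicate 2. Over optimal-only entries matched in both replicates, that ratio had a median of 1.72, with 0.421 and 3.91 as the 5th and 95th percentiles.

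Entries of 1 list only were middling peaks. Signal is the value that the authors' peak caller gave each peak. Its median was 19.96 in the optimal list alone (quartiles 16.5 and 24.6) and 19.9 in the conservative list alone (16.7 and 24.1), against 77.1 for entries of both lists. All 11900 were also peaks of the list called on pooled reads, where their median ranks were 53953 and 54115 of 300000, against 24042 for entries of both lists. Nearly all had the default width of 290 bp: 99.8% in each group, against 55.5% of entries in both lists. The deposited score, which stops at 1000, was at that top for 1146 optimal-only entries (16.7%) and 663 conservative-only entries (13.2%), and in both lists at once for 82.6% of shared entries.

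Within the pooled list, the members filled a narrow range of signal. Among pooled peaks of signal 20 to 25, 26.4% were in the optimal list only, 20.3% in the conservative list only, 37.2% in both and 16.1% in neither. From 15 to 20 the shares were 22.5%, 16.8%, 11.9% and 48.8%. From 30 to 40 they were 8.68%, 5.61%, 84.6% and 1.10%. Of 28127 pooled peaks with a signal of 60 or more, 3 were in the optimal list only and 2 in the conservative list only. The 2 groups thus sat side by side at the same strength, and the bands, which were set after the values were seen, do not separate them.

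**Figure D1:**
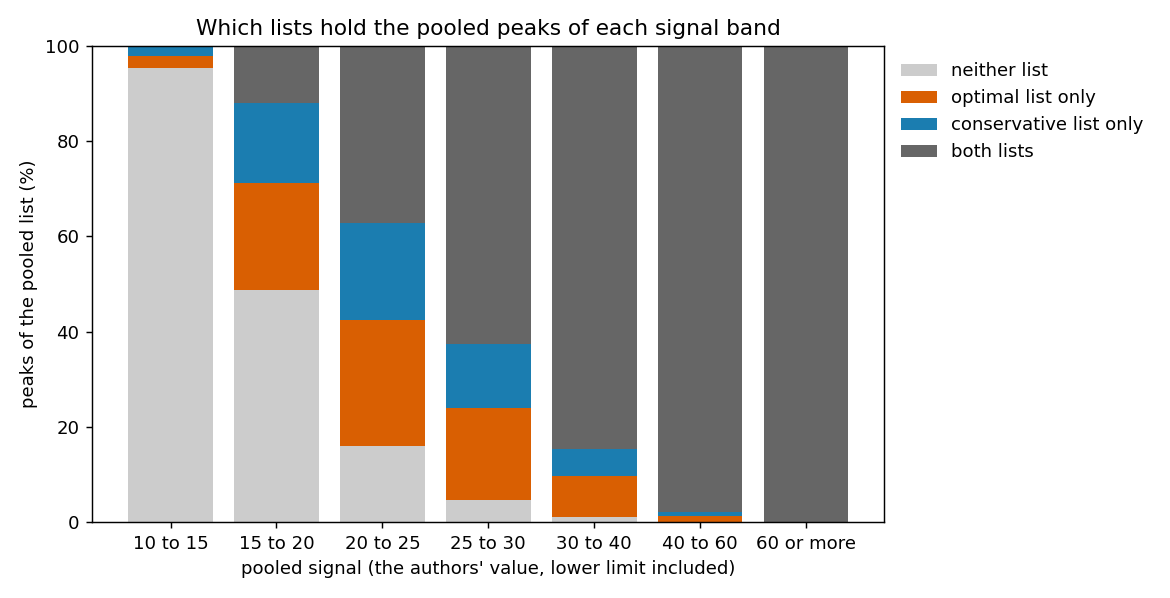
Share of pooled peaks (%) held by neither list, the optimal list only, the conservative list only or both, by band of pooled signal (the authors' value). The 2 one-list groups take their largest shares from 15 to 30, with 26.4% and 20.3% of peaks from 20 to 25.

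Both lists were drawn from the peaks of 1 pooled list, so the spacing of summits between them follows from that list. The nearest summit of the other list was at least 199 bp away in both groups. Entries of both lists were likewise at least 199 bp from each other. A summit of the other list lay within 300 bp of 196 optimal-only entries (2.85%) and 149 conservative-only entries (2.96%). A summit of an entry in both lists lay within 1 kb of 752 (10.9%) and 559 (11.1%).

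The groups differed in how the replicates ranked them. A replicate summit within 50 bp in both replicate lists was found for 4868 optimal-only entries (70.8%), 3686 conservative-only entries (73.3%) and 46436 entries of both lists (96.6%). In those matched entries, the median signal of the optimal-only group was 10.7 in replicate 1 and 7.73 in replicate 2. For the conservative-only group it was 11.1 and 9.17, and for entries of both lists 44.5 and 36.3. Signals are unscaled between lists, so percentiles within each replicate list are used below, with 100 for the strongest peak. The optimal-only entries stood at median percentiles of 81.4 and 79.9, and the conservative-only entries at 81.8 and 82.2. Group medians were thus close, and the difference lay in the single entries.

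Optimal-only entries ranked differently in the 2 replicates, and conservative-only entries ranked alike. The median size of the percentile difference was 8.62 points (quartiles 6.62 and 13.7) in the optimal list alone, 1.94 points (0.944 and 3.24) in the conservative list alone and 0.787 points in both lists. A difference of more than 5 points, a limit set after the values were seen, was present in 4605 of 4868 optimal-only entries (94.6%). It was present in 76 of 3686 conservative-only entries (2.06%) and 631 of 46436 entries of both lists (1.36%). Differences of more than 10 points were found in 1918 optimal-only entries, 724 of which differed by more than 20, and in 0 entries of the other groups. Inside the optimal-only group both directions were common: replicate 1 was higher by more than 5 points in 2535 entries and replicate 2 in 2070. These differences describe what the thresholds selected.

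**Figure D2:**
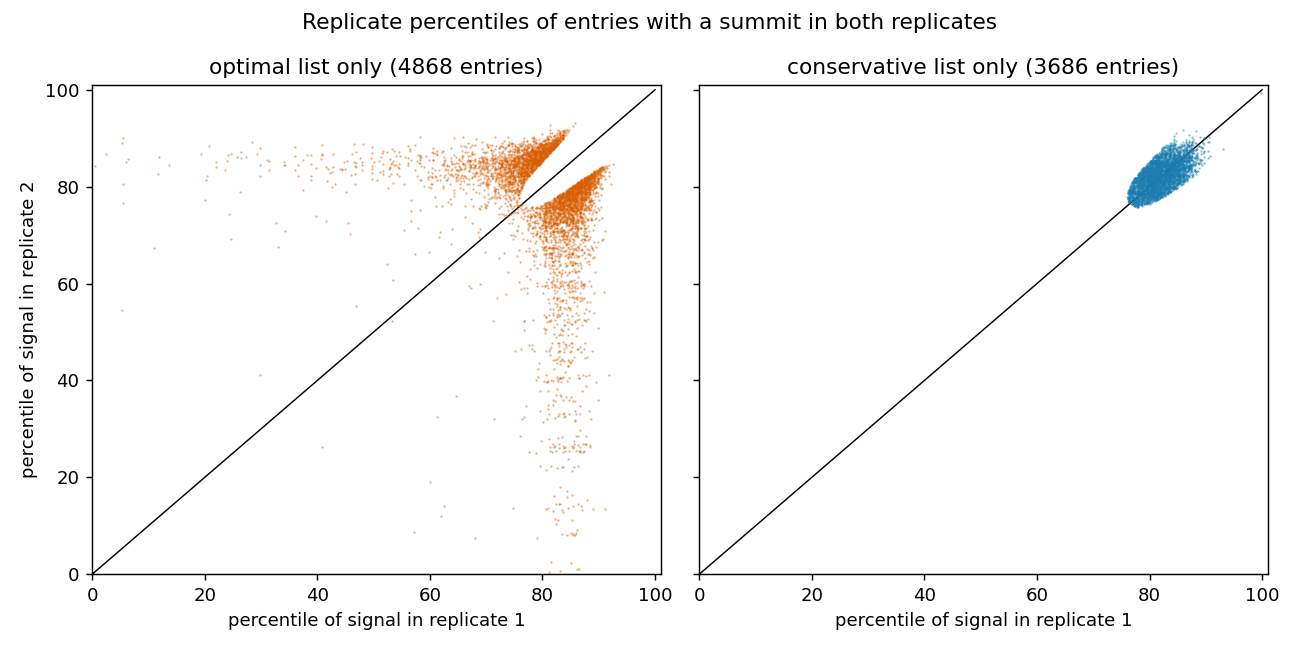
Percentile of signal in replicate 1 (horizontal) and replicate 2 (vertical), 1 point for each entry with a summit in both replicate lists, with the line of equal percentiles. The 4868 optimal-only entries form 2 wings off the line, while the 3686 conservative-only entries lie along it, with no percentile under 75.9.

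**Figure D3:**
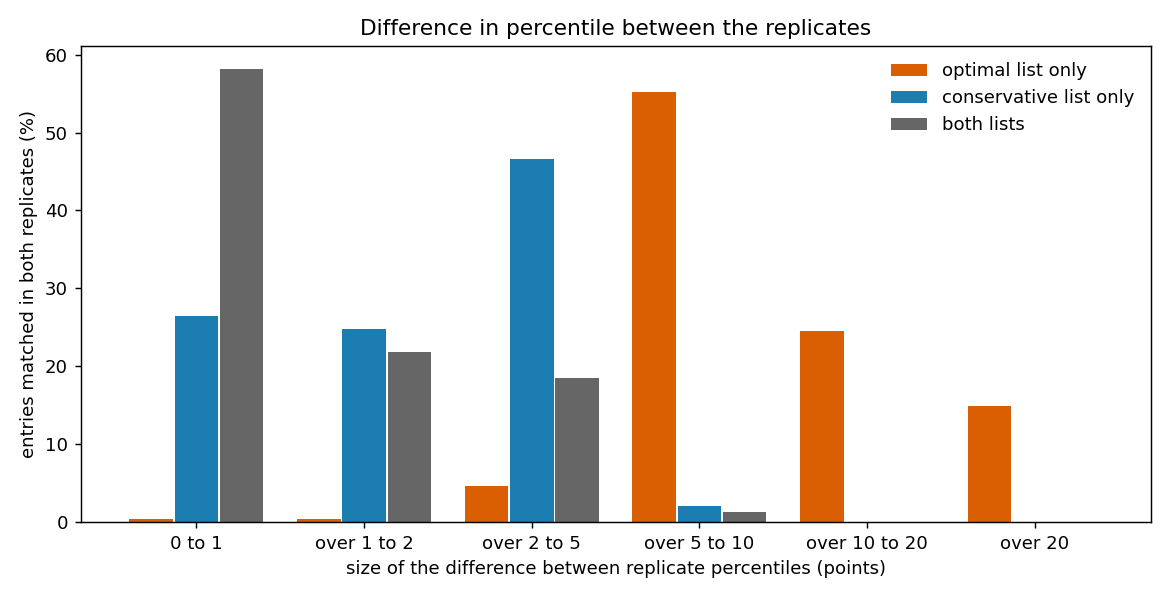
Entries matched in both replicates (%) by the size of their percentile difference in points, for each group. Optimal-only entries lie mostly beyond 5 points and the other groups mostly below, with optimal-only shares of 55.2% from 5 to 10 points and 14.9% over 20 points.

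At equal pooled signal the same pattern held. Between 20 and 25, the median size of the percentile difference was 8.83 points for optimal-only entries and 2.18 points in both other groups. The median replicate signals of optimal-only entries were 12.8 and 7.30. Those of conservative-only entries were 11.5 and 9.62, and those of entries in both lists 11.96 and 9.80. Conservative-only entries therefore resembled entries of both lists in these measures. In optimal-only entries the median of replicate 1 minus replicate 2 percentile was 5.60 points there, but -3.10 points from 10 to 15. Between 40 and 60, the 91 matched optimal-only entries had medians of 30.6 and 10.6, so replicate 1 carried most of the strong ones. The 51 conservative-only entries there had 23.2 and 19.8.

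The strongest optimal-only entry, chrX:150956677-150956848, lay between genes, with Gm8424, a processed pseudogene, nearest at 30578 bp. Its signal was 112. Replicate 1 had a summit 14 bp away with 68.2, and the nearest replicate 2 summit, 83 bp away, had 7.85. The second, at chr7:126799202-126799360 in an intron of Aldoa, which encodes a glycolytic aldolase, had 67.1. Replicate 2 had 28.2 at 14 bp, and replicate 1 had 61.1 at 266 bp. An entry of both lists lay 261 bp from the summit. The third, with 60.3, lay 11 bp upstream of Adprm at chr11:67052460-67052749, with 16.5 in replicate 1 and 43.4 in replicate 2. In these 3 entries the replicates differed in strength or in the place of the summit.

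Of the 5 strongest optimal-only entries at coding promoters, all but Adprm were stronger in replicate 1. Tpra1, which encodes a membrane protein, had 36.5 and 11.2 in replicates 1 and 2. Lbh, a transcription cofactor gene of limb and heart, had 35.4 and 4.24. Rspo3, whose product boosts WNT signalling, had 33.1 and 10.9. Each had a replicate 1 signal about 3 times or more that of replicate 2, where the median ratio over entries of both lists was 1.22.

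The strongest conservative-only entry stood apart from its group. On chromosome 18, in an intergenic stretch 12995 bp from the microRNA gene Gm23882, it had a signal of 359.9 and pooled rank 1064. Its replicate signals were 211 and 152, at percentiles 99.8 and 99.4. It held a motif match with a score of 23.4. The next strongest conservative-only entry, 20 bp from the TSS of Gm49320 at chr8:4238852-4238969, had 71.6, with 51.7 in replicate 1 and 17.0 in replicate 2. Then came Gm40304 with 54.0 (27.9 and 24.2), Gm18760 with 53.9 (32.6 and 24.8) and Gm37645 with 52.7 (28.1 and 24.3), each the nearest gene of an intronic entry with a motif match. Except for Gm49320, these replicate pairs lay close to the usual ratio.

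Other strong conservative-only promoters varied in both directions. Over conservative-only entries matched in both replicates, the ratio of replicate 1 to replicate 2 signal had a median of 1.21, with 0.829 and 1.79 as the 5th and 95th percentiles, and Gm49320 had the highest, 3.04. Sh3gl2, which encodes endophilin A1 of synaptic vesicle uptake, had 28.3 and 15.5. Rnf6, a ubiquitin ligase gene, had 18.97 and 26.95, and Erp29, which encodes a chaperone of the endoplasmic reticulum, had 21.3 and 23.7. Replicate 2 was the higher of the 2 at Rnf6 and Erp29, and replicate 1 at Sh3gl2.

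At the extremes of the optimal-only group, the matched summit of 1 replicate stood near the bottom of its list. The match takes the nearest summit, so a stronger one farther off is not counted. In an intron of Pias1, a SUMO ligase gene, the replicate 1 signal of 17.8 (percentile 86.5) faced 2.74 in replicate 2 (percentile 1.13). In an intron of Gbx1, a homeobox gene, 17.2 faced 2.74. In the other direction, an entry 105 bp upstream of Runx1t1, a transcriptional corepressor gene, had 3.13 in replicate 1 (percentile 2.53) and 14.9 in replicate 2 (percentile 86.8). A coding exon near Gm12269 had 3.14, at 45 bp, and 24.5, with a pooled signal of 49.7. The largest shifts of the conservative-only group were far smaller: 5.75 points toward replicate 1 in an intron of Synj2 (22.9 and 9.43) and 6.40 points toward replicate 2 in an intron of Il15ra (14.6 and 29.3).

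Some members had no summit of a replicate within 50 bp. Replicate 1 alone matched 1109 optimal-only and 615 conservative-only entries, and replicate 2 alone matched 706 and 499. Neither matched 188 (2.74%) and 229 (4.55%), against 148 (0.308%) of entries in both lists. The limit cut through a thinning tail: in replicate 1, 261 optimal-only entries had their nearest summit at 41 to 50 bp and 151 at 51 to 60 bp, and for conservative-only entries the counts were 212 and 105. Nearest summits more than 300 bp off were found for 91 optimal-only entries in replicate 1 and 253 in replicate 2, but for only 10 and 14 conservative-only entries. The strongest unmatched optimal-only entry, at the promoter of the potassium channel gene Kcnv1, had a signal of 42.2, and replicate summits of 34.2 and 10.7 lay 59 bp and 62 bp away. The strongest unmatched conservative-only entry, near Neurl2, had 26.3, with 14.5 at 58 bp and 13.5 at 102 bp.

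The CTCF motif was present at about 1 in 3 members. On even-numbered autosomes and X, which were not used to learn the matrix, 1096 of 3185 optimal-only entries (34.4%, 95% Wilson interval 32.8 to 36.1) had a match on either strand within 50 bp of the summit. Among conservative-only entries the count was 880 of 2359 (37.3%, 35.4 to 39.3), and among entries of both lists 14571 of 22230 (65.5%, 64.9 to 66.2). Over all entries of either list the share was 59.6%, and the threshold let 1.00% of windows 1 kb away pass. Both groups of members were thus well above those windows and well below the background of all entries. The intervals, here and below, cover counting error only, since sites are not replicates of a condition, and no p-value was computed.

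The conservative-only share was higher than the optimal-only share by 2.89 points (95% Newcombe interval 0.342 to 5.45). Among entries matched in both replicates it was 44.2% against 39.7%, a difference of 4.49 points (1.40 to 7.57). These are 2 of 27 such differences computed, and their intervals are not adjusted for that number. Motif share grew with signal, so the groups were also compared within bands. At signal 15 to 20 the shares were 32.4% in the optimal list only, 35.6% in the conservative list only, 33.3% in both lists and 32.9% in neither. At 20 to 25 they were 39.3%, 41.7%, 42.1% and 43.8%, and at 25 to 30 they were 43.3%, 50.5%, 45.7% and 39.8%. From 30 to 40 the order of the 2 groups was the opposite, with 46.6% and 41.9%. Intervals of the 2 groups overlapped in every band from 10 to 40. Over signal 15 to 30 as a whole, the conservative-only share was higher than the optimal-only share by 3.59 points (0.641 to 6.53), and by 4.63 points (1.27 to 7.98) among entries matched in both replicates. Most of the gap to entries of both lists thus went with signal: over 15 to 30 it was 5.41 points (2.84 to 7.96) for optimal-only and 1.82 points (-0.993 to 4.62) for conservative-only entries, against 31.1 and 28.2 points without bands. Entries of both lists lay toward the upper end of that range, and the part that this plays in the remaining gap was not tested.

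**Figure D4:**
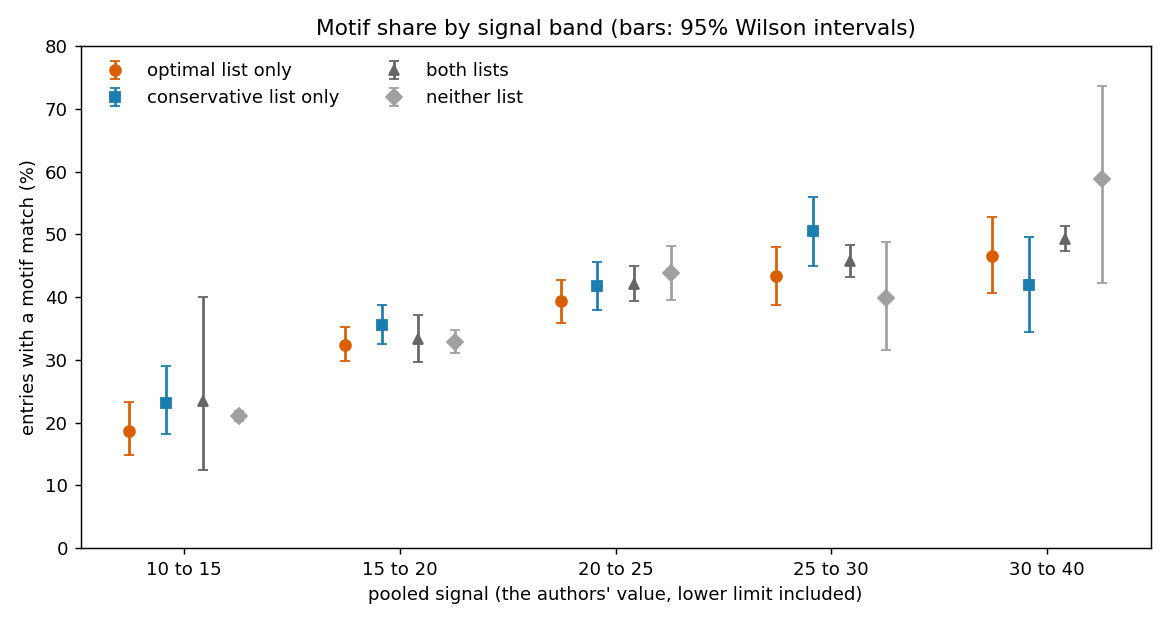
Entries with a motif match (%) by band of pooled signal for the 4 sets of pooled peaks on even-numbered autosomes and X, with 95% Wilson intervals. Shares climb with signal in the 2 one-list groups from 18.7% and 23.2% at 10 to 15 to 43.3% and 50.5% at 25 to 30, and their intervals overlap in each band.

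Where a member had the motif, it lay less tightly about the summit than in entries of both lists. Only matches within 50 bp were scanned, which limits the distance, and distances were not compared within bands of signal. The median distance from motif centre to summit was 10.5 bp in both groups and 6.50 bp in entries of both lists. It was 10 bp or less in 47.1% of optimal-only matches (44.1 to 50.04), 48.2% of conservative-only matches (44.9 to 51.5) and 68.8% of matches in both lists (68.0 to 69.5). The plus strand carried it in 49.2% and 48.3%. Median motif scores were 14.6, 14.5 and 16.7, so the 2 groups were alike in place, strand and score.

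Members lay at promoters more often than entries of both lists. A summit within 1 kb of a TSS was found for 1310 optimal-only entries (19.1%, 18.2 to 20.01) and 954 conservative-only entries (18.97%, 17.9 to 20.1), against 14.1% (13.8 to 14.4) of entries in both lists and 15.0% of all entries. The conservative-only minus the optimal-only share was -0.0957 points, with an interval of -1.52 to 1.34. At signal 15 to 30 the gap to entries of both lists was smaller: 17.4% and 17.1% against 15.2%. Pooled peaks in neither list had promoter shares of 16.7% from 15 to 20, 17.4% from 20 to 25 and 20.7% from 25 to 30. In these bands optimal-only entries had 17.5%, 17.3% and 17.5%, and conservative-only entries 17.4%, 17.3% and 15.7%. Without bands, introns held 43.0% and 43.6% of members, as in entries of both lists (43.1%). Intergenic sequence held 31.1% and 30.5% of members and 35.8% of entries in both lists. Coding exons held 2.65% and 2.86%, and 3' untranslated regions 1.37% and 1.31%.

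Promoter members seldom held a motif match. It was found in 75 of 590 optimal-only promoter entries (12.7%, 10.3 to 15.6) and 61 of 434 conservative-only ones (14.1%, 11.1 to 17.6), against 41.8% (40.04 to 43.6) at promoters in both lists. Away from promoters the shares were 39.3%, 42.5% and 69.2%. These shares were not compared within bands of signal. The median signal over all classes was 19.96 and 19.9 in the 2 groups, against 77.1 in entries of both lists. A promoter entry without a match had no score above the threshold of 9.89 within 50 bp of its summit. Weaker likenesses to the motif can remain, as at Tbx5 with a best score of 9.2. Nothing further can be read from a missing match about CTCF.

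Promoter and motif shares also followed the replicate match. Among optimal-only entries, 15.7% of those matched in both replicates were at promoters, 26.2% of those matched in replicate 1 alone, 26.2% in replicate 2 alone and 37.2% of those matched in neither. The conservative-only shares were 15.3%, 27.3%, 29.9% and 31.4%. Motif shares went the other way, from 39.7% to 10.96% in the optimal-only group and from 44.2% to 6.54% in the conservative-only group. Entries of both lists did likewise between these subsets, from 13.6% to 37.8% at promoters and from 66.9% to 5.66% with the motif. The median signal of the 2 one-list groups went from 21.2 to 10.1 and from 21.1 to 8.57. That of entries in both lists went from 80.9 to 8.10. The part of signal in these shares was not tested. Unmatched optimal-only entries had a median GC content of 55.1% within 150 bases on each side of the summit, against 47.8% of matched ones. For conservative-only entries the values were 50.8% and 48.2%. The direction of the replicate shift made little difference among optimal-only entries: 15.6% of those higher in replicate 1 and 15.8% of those higher in replicate 2 were at promoters, and 40.1% and 39.3% held the motif.

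**Figure D5:**
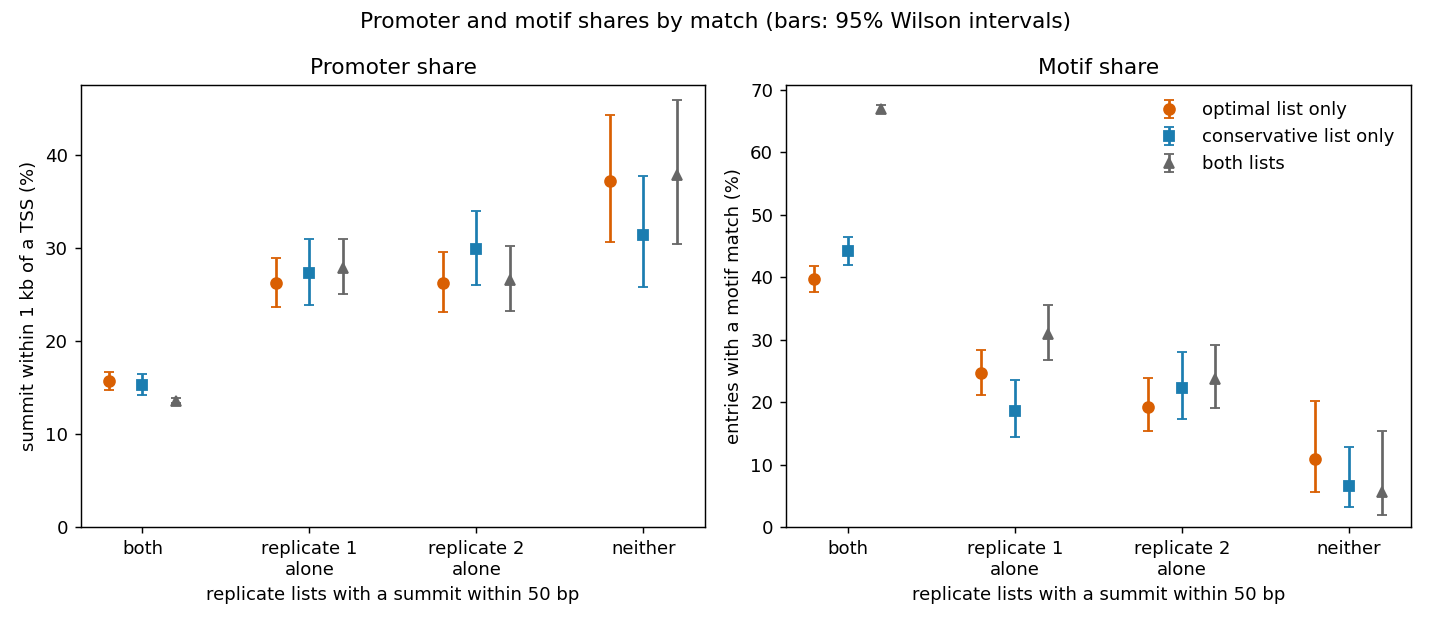
Promoter share (left, %) and motif share (right, %) by which replicate lists have a summit within 50 bp, for each group, with 95% Wilson intervals. Promoter shares of the members are lowest when both replicates match (15.7% and 15.3%), where motif shares are highest (39.7% and 44.2%).

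Soft-masked sequence, which marks repeats in the assembly, held the summit of 25.2% of optimal-only entries (24.2 to 26.3) and 25.9% of conservative-only entries (24.7 to 27.2), against 18.7% of entries in both lists. Among entries of signal 15 to 30 the order turned, with 26.4% and 27.0% against 28.5%, a gap of 2.14 points (0.545 to 3.73) for optimal-only and 1.54 points (-0.220 to 3.28) for conservative-only entries. Every chromosome held members of both groups. The optimal-only share of all entries ranged from 9.68% on X to 12.3% on chromosome 12, and the conservative-only share from 7.21% on X to 9.005% on chromosome 14. The order of the chromosomes was not the same in the 2 groups: chromosome 14 had an optimal-only share of 10.7%, and chromosome 19 had shares of 12.1% and 7.54%.

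Genes could lose or gain a promoter entry by the choice of list. Of 21701 protein-coding genes, 6373 had an entry within 1 kb of the TSS in either list. For 812 genes (3.74% of all) the optimal list held such an entry and the conservative list none, and for 556 (2.56%) it was the other way round. Together these were 21.5% of genes with a promoter entry. The gene lists below were drawn up from textbook roles, with earlier results of these data known, and most shares rest on 1 to 5 genes. Their shares are to be read against the 3.74% and 2.56% of all genes. Lists also differed in how many of their genes had any promoter entry.

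In lung epithelium, where branching airways are patterned by transcription factors, 3 of 42 genes (7.14%) had a promoter entry in the optimal list only. In the conservative list only there were 0. The shares of all protein-coding genes were 3.74% and 2.56%, so the first share rests on few genes. Irx3, an Iroquois homeobox gene, had 15.9 in replicate 1 and 5.85 in replicate 2 at a summit 1 bp from its TSS. Foxa2, a forkhead factor of airway differentiation, had 12.96 and 5.64. Id2, which marks growing bud tips, had 10.4 in replicate 1 and no summit within 50 bp in replicate 2. All 3 were stronger in replicate 1, and none held a motif match. Of all optimal-only promoter entries scanned, 12.7% held a match. The median ratio of replicate 1 to replicate 2 signal was 1.72 over optimal-only entries matched in both replicates.

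Among 38 mesenchyme and mesothelium genes, 1 was in each group (2.63%), against 3.74% and 2.56% of all protein-coding genes. Lef1, a nuclear effector of WNT signals, was optimal only, with replicate summits of 8.64 and 4.75 at 114 bp and 97 bp. Tbx5, a T-box factor of lung bud mesenchyme, was conservative only, with 8.86 and 9.76 at an entry nearer the TSS of the non-coding Gm43050. Of 56 signalling genes, Smad3 and Nog were optimal only (3.57%) and Bmpr2 conservative only (1.79%). Smad3, which transmits TGF-beta signals, had replicate summits of 12.3 and 7.74 at 165 bp and 468 bp. Nog, whose product is a secreted BMP antagonist, had 10.8 in replicate 1. Bmpr2, the type 2 BMP receptor gene, had 9.58 and 9.89 at summits that coincided with that of the entry. In the retinoic acid and Notch list of 28 genes, the Notch target Hes1 was optimal only (20.4 and 7.13). The Notch ligand Dll1 was conservative only (10.6 and 6.94). Each was 3.57% of that list.

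Vessel genes had 3.57% in each group, and blood genes had 5.00% optimal only and 0 conservative only. Over all protein-coding genes these shares were 3.74% and 2.56%, and each share here rests on at most 1 gene. Of 28 endothelial and smooth muscle genes, Lmod1, a smooth muscle leiomodin gene, was optimal only and Cldn5, the endothelial claudin gene, conservative only. For Cldn5 the replicate signals were 11.8 and 10.8, with the replicate 2 summit 57 bp away. Of 20 blood genes, Cx3cr1, a chemokine receptor gene of macrophages, was optimal only, with 6.14 in replicate 1 and 7.79 at 90 bp in replicate 2. It was a promoter entry with a motif match (score 14.5).

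The largest optimal-only share among the 15 lists was in replication and cell cycle, with 5 of 38 genes (13.2%), while 0 were conservative only. The shares of all protein-coding genes were 3.74% and 2.56%. Mcm2, a subunit of the replicative helicase, had 21.5 and 8.36 in replicates 1 and 2. Aurkb, a mitotic kinase gene, had 6.42 and 14.3. Cdk1, the kinase of mitotic entry, had 15.1 in replicate 1, with 5.09 at 67 bp in replicate 2. The entry counted for Gins1, a helicase cofactor gene, was nearer the TSS of Abhd12, with 8.01 and, at 52 bp, 18.0. The higher replicate was thus replicate 1 at 2 of these genes and replicate 2 at the other 2. No test of this share was made.

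Cytosolic ribosomal protein genes numbered 83, and 49.4% of them had no promoter entry in either list, against 70.6% of all protein-coding genes. They had 5 optimal-only promoters (6.02%) and 3 conservative-only ones (3.61%), against 3.74% and 2.56% of all protein-coding genes. Among optimal-only ones, Rpl22l1 had 11.7 and 3.05, while the Rps27a entry, nearer the TSS of Clhc1, had 5.76 and, at 55 bp, 13.1, and Rpl8 had 5.98 and, at 111 bp, 12.4. Among conservative-only ones, Rpl39 had 9.77 and 8.001, Rplp2 13.6 and 12.9, and Rps15a 11.6 and 9.36, the last pair each with 1 replicate summit beyond 50 bp. Replicate signals were near each other at the 3 conservative-only promoters and apart at these 3 optimal-only ones, as in the 2 groups as a whole. This describes what the thresholds selected and is not a result about these genes.

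Imprinted genes, expressed from 1 parental copy and a classic setting of CTCF insulation, had 0 optimal-only and 2 conservative-only promoters (5.00%) among 40 matched genes. The shares of all protein-coding genes were 3.74% and 2.56%. The Dio3 entry, chr12:110278034-110278323, lay 7 bp upstream of the TSS of Dio3os and 889 bp from that of Dio3, which encodes a thyroid hormone deiodinase. It had 12.5 and 11.4, a motif match (score 12.6) and 52 CG pairs within 150 bases on each side. The Copg2 entry, nearer the TSS of 4930412F09Rik, had 11.8 and 7.22 and no match. Among 17 genes of CTCF and cohesin, Smc1a, a ring subunit of cohesin, was conservative only (5.88%). It had 8.70 and 9.63 at an entry nearer the TSS of Ribc1. Of 39 Hox genes, Hoxa6 was conservative only (2.56%), with 10.9 and, at 55 bp, 7.75.

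Zfp-named zinc finger genes had 23 optimal-only (5.88%) and 13 conservative-only promoters (3.32%) among 391. The shares of all protein-coding genes were 3.74% and 2.56%. Zfp78 had 27.1 and, at 62 bp, 6.45. Zfp174 had 23.6 and 6.44, and Zfp975 had 8.59 and 11.4. The conservative-only Zfp457 had 12.7 and 11.3, and Zfp994 had 14.7 and 9.70. None of these 5 held a motif match, which 12.7% of optimal-only and 14.1% of conservative-only promoter entries scanned did. Of 32 housekeeping genes, Eef2 was optimal only (4.03 at 131 bp and 7.21) and Polr2a conservative only (9.49 and 7.23), each 3.12%. Olfactory receptor genes had 1 in each group (0.0917%) among 1091, and vomeronasal receptor genes had 0 of 325 in either.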

How the data were processed

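The lists analysed were 5 deposited narrowPeak files on mm10: 1 for each replicate, 1 for pooled reads, and the optimal and conservative IDR lists. Per the deposited README files, the replicate lists came from alignments with 1 shared control and the IDR lists from the replicate and pooled lists. The aligner, caller and IDR settings were not given in the sources used here. Signal and score are used as the authors deposited them, unscaled between lists. The members and gene lists were chosen with earlier results of these data known.

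Summits were start plus offset. Sequence came from GRCm38 patch 6 (RefSeq), genes from GENCODE M21, with 1 TSS for each of 53843 genes and classes in the order promoter, UTR and exon, intron, intergenic. The motif matrix, 20 bases wide, was learned in 15 rounds from the strongest 3000 entries of both lists on odd-numbered autosomes, and scanned on both strands within 50 bp of the summit on the other chromosomes. It was tested on simulated data. Shares carry 95% Wilson intervals and differences Newcombe intervals, and no p-value was computed. Named for each group were the 5 strongest entries, the 5 strongest at coding promoters, the 3 largest replicate shifts each way, the 3 strongest matched in neither replicate, the 3 highest motif scores, and up to 4 genes of each gene list. Some of these are not printed. Alternatives changed the match distance, promoter window, motif settings, replicates and signal range. Python 3.11.15, numpy 2.4.6, pandas 2.3.3 and matplotlib 3.10.9 were used.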

Additional observations from a re-analysis of the deposited data

How the results depend on the processing

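Values are given for the optimal-only and then the conservative-only group. The numbers of entries, 6871 and 5029, were the same when a summit of the other list within 50 bp was allowed to pair entries. This had to be so, since no summit of the other list lay that near. The share matched in both replicates was 47.3% and 48.0% with summits within 25 bp, and 82.9% and 85.8% within 100 bp. With 1 replicate left out, it was 81.1% to 87.0% and 83.2% to 85.5%, since only the other replicate then had to match. Among entries at or above the median signal of their group it was 82.9% and 88.8%. The promoter share was 12.9% and 13.3% within 500 bp of the TSS, 27.5% and 27.7% within 2500 bp, 25.2% and 24.8% with every transcript start, and 17.7% and 17.2% at or above the median signal. It stayed above that of entries in both lists under each of these. The motif share was 31.9% and 33.3% within 25 bp of the summit, 24.5% and 25.9% within 100 bp, 3.70% and 3.98% with the threshold passed by 0.1% of windows, and 41.8% and 44.3% at or above the median signal. With the strongest 1000 entries as training set it was 34.0% and 37.0%. Conservative-only exceeded optimal-only in each of these, by less than 1 point with the 0.1% threshold. The soft-masked share was 26.7% and 27.5% at or above the median signal. Genes with promoter entries in 1 list numbered 649 and 465 within 500 bp, and 856 and 624 within 2500 bp. Causes of these moves were not tested. No paired analysis was possible because there is 1 group. Without read counts, depth sets no stated limit.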

Other observations

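A small number of very weak pooled peaks were in the thresholded lists. A signal under 10 was found for 312 optimal-only entries, 243 conservative-only entries and 111 entries of both lists. Matched summits in both replicates were found for 18, 2 and 1 of these, and in neither for 91, 136 and 88. Promoters held 34.3%, 38.3% and 30.6% of them. The motif was found in 4 of 138, 4 of 103 and 2 of 45 on even-numbered autosomes and X. Another entry of both lists lay within 500 bp of 94 optimal-only entries (30.1%), 86 conservative-only entries (35.4%) and 102 of the entries in both lists (91.9%).

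Members near an entry of both lists differed from other members in annotation, and entries of both lists showed the same pattern. Among the 300 optimal-only and 220 conservative-only entries within 500 bp of one, 36.7% and 35.0% were at promoters and 14.9% and 12.8% held the motif. For the other members the shares were 18.3% and 18.2% at promoters, and 35.3% and 38.5% with the motif. Among entries of both lists, 31.9% of those within 500 bp of another were at promoters, against 13.7% of the rest. The motif was held by 48.9% and 65.9% of them. The signal of members differed too, with medians of 15.8 and 13.4 near such an entry and 20.1 and 20.01 elsewhere, and its part was not tested.

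Among pooled peaks with a signal of 40 or more, 10 were in neither list: 5 from 40 to 60 and 5 above.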
